A study of Mus musculus with 6 samples.

Results

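The genes described here are 10 genes by which macrophages are recognised in the mouse testis, namely Csf1r, Adgre1, Cd68, C1qa, C1qb, C1qc, Mrc1, Lyz2, Cd163 and Fcgr3. They were taken by symbol (GENCODE M21) from a table of read counts for 55487 genes, and all 10 were found and passed the filter on low counts. The table holds 6 libraries of polyadenylated RNA from whole testes of mice at postnatal day 19, each from a different mouse. Of the mice, 3 are dsfb, a name that the series title ties to SFB alleles of Hormad1 together with Hormad2. The products of this gene pair sit on the axes of unsynapsed meiotic chromosomes. The other 3 mice have the genotype control, with no allele named, and the labels give no strain for either group. Comparing dsfb with control shows how macrophage transcripts of the testis differ in animals with both altered alleles.

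Testicular macrophages lie mostly in the interstitium, in contact with Leydig cells, and in a layer around the tubules. Their survival depends on the receptor tyrosine kinase CSF1R and its ligands CSF1 and IL34, and they take up dead cells and debris through scavenger, complement and Fc receptors. Because whole testes were sequenced, fewer cells of a type and less RNA per cell cannot be told apart, and a level relative to all reads also moves with the other cells in the tissue.

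Depth was 17306363, 15335130 and 15957354 counted reads in dsfb replicates 1, 2 and 3 and 23983373, 27707291 and 25684743 in control replicates 1, 2 and 3. A pair of libraries stood apart from the others. Control replicate 3 differed most from the rest of its group and held the most spermatid transcripts, with a summed level of 9 spermatid markers of 911 CPM (counts per 1000000 reads, with the library size scaled by the TMM method) against 363 and 410 CPM in control replicates 1 and 2. The replicates numbered 3 were also low in globin transcripts. The 4 globin genes summed to 318, 295 and 35.6 CPM in dsfb replicates 1, 2 and 3, against 213, 208 and 11.6 CPM in control replicates 1, 2 and 3. Markers of pachytene spermatocytes, the germ cells of meiotic prophase, summed to between 37.8 and 47.3 CPM in dsfb and between 5866 and 7749 CPM in control.

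In dsfb testes 6 of the 10 genes rose, 1 fell and 3 did not pass the test. The genes that rose were Csf1r, Cd68, Mrc1 and the C1q chains C1qa, C1qb and C1qc, by 1.6-fold to 2.18-fold. Fcgr3 went the other way and fell 5.01-fold. Adgre1, Lyz2 and Cd163 had fold changes of 1.29, 1.23 and 1.74 and did not pass. Among all 19826 genes tested 66.9% passed (edgeR quasi-likelihood test, Benjamini-Hochberg adjusted p under 0.05), 30.7% as higher and 36.2% as lower in dsfb. The number that rose was 3 without dsfb replicate 3 or control replicate 2, and 4 without dsfb replicate 1. The median log2 fold change of the 10 genes was 0.81, against 0.02 over all tested genes.

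The rises passed the test for levels relative to all reads and not for levels relative to Sertoli cell markers. On the latter only C1qa and C1qc stayed above 0. When the libraries were scaled so that autosomal Sertoli cell markers were level between groups, the log2 fold change was between -0.62 (Lyz2) and 0.19 (C1qa) for the 9 genes other than Fcgr3. Of these 7 lay below 0 and Lyz2 passed as lower, and 0 of the 10 genes rose (edgeR; also 0 at an unadjusted p under 0.05). The corresponding value for Fcgr3 was -3.24. With Leydig cell markers level, 0 of the 10 genes rose by the test either (edgeR; 0 at an unadjusted p under 0.05). Their direction was mostly kept there, and only Adgre1 and Lyz2 turned from above to below 0. The median log2 fold change of the 10 genes was 0.31 with the Leydig scaling and -0.10 with the Sertoli scaling. The summed Leydig cell markers varied within dsfb, at 872, 789 and 565 CPM in replicates 1, 2 and 3. Fewer of all genes passed in either direction with the Leydig scaling (42.7%) than with the Sertoli scaling (62.2%). Whether that spread cost calls was not tested. Among all genes 2.59% rose with the Sertoli scaling and 2.54% with the Leydig scaling. These scalings moved the median of all genes by -0.92 and -0.53 on the log2 scale.

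**Figure D1:**
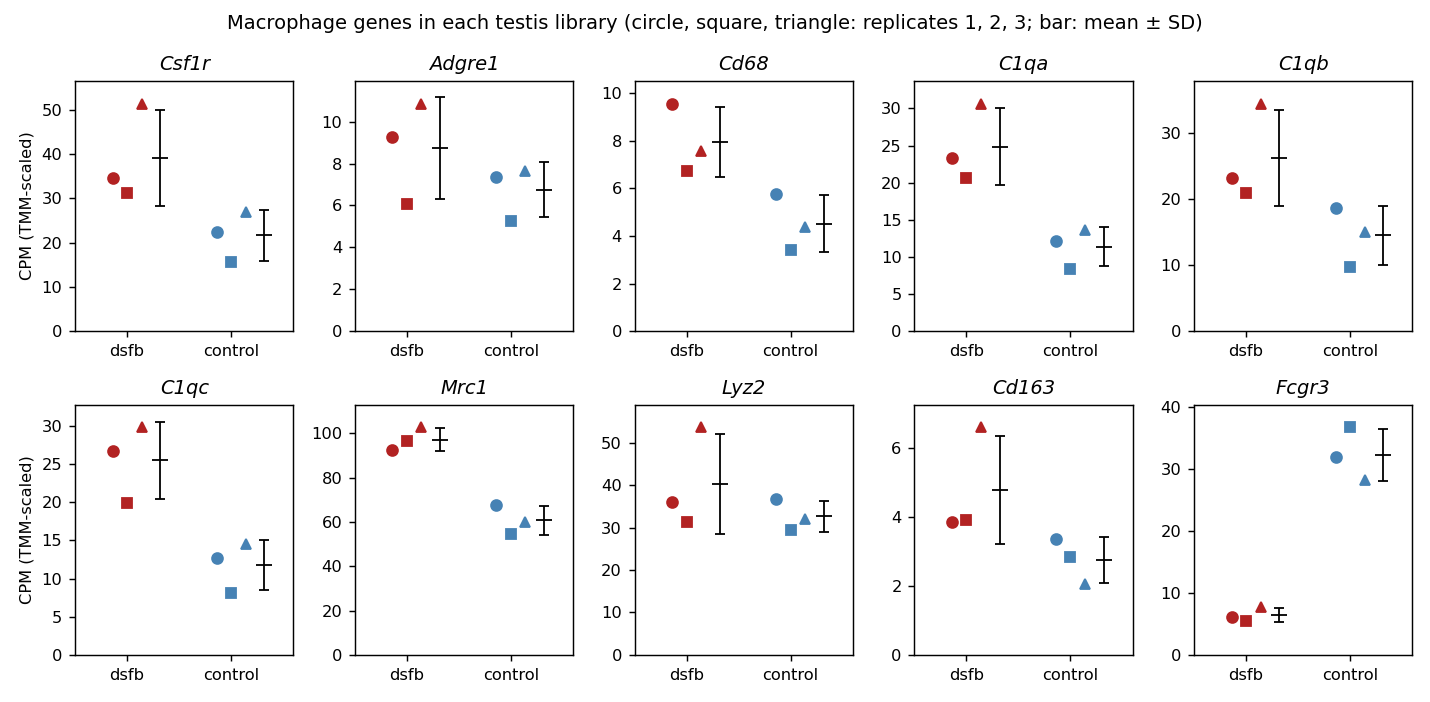
Level of each macrophage gene in every library, in CPM on TMM-scaled library sizes, with dsfb at the left and control at the right of each panel. Points are libraries and bars are mean ± SD of 3. The dsfb libraries lie above all control libraries in 7 panels on this scaling, below them for Fcgr3, and among them for Adgre1 and Lyz2. Of all tested genes 36.2% lie wholly above control and 38.5% wholly below.

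The order of the genes by level per length was similar in both groups apart from Fcgr3. Per kb of exon, Lyz2, which encodes the lysozyme of macrophages, was the most abundant, at 30.6 ± 8.93 CPM per kb in dsfb and 24.8 ± 2.84 CPM per kb in control (SD, n = 3 each). In dsfb C1qb (24.1 ± 6.66 CPM per kb) and C1qa (23.9 ± 4.98) followed, which did not differ beyond their spread. Then came Mrc1 (15.2 ± 0.80) and C1qc (13.2 ± 2.61). The ranges of Mrc1 and C1qc overlapped in dsfb, but within each library of both groups Mrc1 was above C1qc. Csf1r (6.76 ± 1.86 CPM per kb in dsfb) and Cd68 (6.32 ± 1.16) lay close together, as did Fcgr3 (3.70 ± 0.67) and Adgre1 (2.70 ± 0.75). Cd163 was the lowest, at 0.88 ± 0.29 CPM per kb in dsfb and 0.50 ± 0.12 in control. In control Fcgr3 stood second, at 18.6 ± 2.45 CPM per kb, above C1qb (13.4 ± 4.11), C1qa (10.96 ± 2.57) and Mrc1 (9.53 ± 1.01), against the eighth place in dsfb.

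RefSeq promoter windows of 7 of the 10 genes (Fcgr3, Mrc1, C1qb, C1qc, Cd163, Lyz2 and Cd68) were read as the 250 bases before the annotated start. No window was given for Adgre1 and C1qa, and that of Csf1r is not reported here. The windows below belong to a gene pair of the C1q cluster that rose on the TMM scaling, to Mrc1 and, for contrast, to Fcgr3. They lie before RefSeq starts, which do not all coincide with the outermost GENCODE starts, are shown 5′ to 3′ on the strand of the gene (RefSeq, GRCm38.p6), and the capitals mark GAGGAA, a core of sites bound by the myeloid factor PU.1, or its reverse complement TTCCTC.
C1qb (chr4:136886201-136886450, minus strand): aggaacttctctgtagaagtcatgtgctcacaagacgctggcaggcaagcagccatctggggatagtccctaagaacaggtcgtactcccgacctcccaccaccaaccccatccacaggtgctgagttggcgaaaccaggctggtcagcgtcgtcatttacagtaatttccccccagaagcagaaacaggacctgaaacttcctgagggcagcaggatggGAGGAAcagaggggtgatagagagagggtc
C1qc (chr4:136892915-136893164, minus strand): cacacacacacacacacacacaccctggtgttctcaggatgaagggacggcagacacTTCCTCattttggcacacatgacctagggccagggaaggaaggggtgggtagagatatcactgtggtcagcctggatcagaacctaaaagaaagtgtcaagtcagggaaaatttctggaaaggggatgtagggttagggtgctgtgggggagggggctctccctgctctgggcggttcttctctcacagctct
Mrc1 (chr2:14229164-14229413, plus strand): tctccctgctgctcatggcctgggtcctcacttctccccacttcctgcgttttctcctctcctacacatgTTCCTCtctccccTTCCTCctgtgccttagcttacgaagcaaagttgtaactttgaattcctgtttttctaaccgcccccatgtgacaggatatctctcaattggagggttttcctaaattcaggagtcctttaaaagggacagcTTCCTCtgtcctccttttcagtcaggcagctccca
Fcgr3 (chr1:171059404-171059653, minus strand): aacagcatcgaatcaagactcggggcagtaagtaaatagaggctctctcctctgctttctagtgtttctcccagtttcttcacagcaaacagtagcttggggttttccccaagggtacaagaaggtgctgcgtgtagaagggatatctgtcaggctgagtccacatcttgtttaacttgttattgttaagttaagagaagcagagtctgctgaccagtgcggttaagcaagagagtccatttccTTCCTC

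On either strand GAGGAA was found in the windows of 5 of the 7 genes (Fcgr3, Mrc1, C1qb, C1qc and Cd68) and in 23.3% of all 32851 promoter windows of the same length. Mrc1 held it 3 times, with first letters 180, 167 and 35 bases before the start. The AP-1 motif TGACTCA was in 1 of the 7, that of Cd68, and in 4.46% of all windows. The letters are described only as sequence. Fcgr3, which fell, and the 3 genes shown that rose on the TMM scaling all held GAGGAA.

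Csf1r encodes the receptor for CSF1 and IL34 on which macrophages depend (ENSMUSG00000024621, chromosome 18, 61100598 to 61132149, plus strand, mm10). It was at 34.6, 31.2 and 51.3 CPM in dsfb replicates 1, 2 and 3, against 22.3, 15.6 and 26.9 CPM in control replicates 1, 2 and 3. All dsfb libraries lay above all control libraries, as was so for 36.2% of tested genes. The log2 fold change was 0.86 (SE 0.25, edgeR adjusted p = 0.0183) on the TMM scaling and -0.083 with Sertoli cell markers level between groups. The call was lost without dsfb replicate 3 (edgeR adjusted p = 0.0659), control replicate 1 (0.0525) or control replicate 2 (0.0514). The end of Csf1r shares 873 exonic bases with Hmgxb3 on the opposite strand. Whether strand was used in counting is not known here, so some of its reads may belong to that gene. Hmgxb3 was at 64.1, 63.3 and 68.2 CPM in dsfb and at 76.2, 77.5 and 76.3 CPM in control, and fell (log2 -0.23, edgeR adjusted p = 0.0295).

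Adgre1 encodes an adhesion receptor that is the classical surface marker of mouse macrophages (chromosome 17, 57358691 to 57483527). Its level was 9.24, 6.08 and 10.9 CPM in dsfb, against 7.35, 5.24 and 7.65 CPM in control. The groups overlapped and the gene did not pass (log2 0.37, SE 0.27, edgeR adjusted p = 0.256). Cd68 encodes a glycoprotein of the lysosomal and endosomal membranes of phagocytes (chromosome 11, 69664213 to 69666153). It was at 9.55, 6.71 and 7.56 CPM in dsfb and at 5.77, 3.43 and 4.36 CPM in control. All dsfb libraries lay above the controls, and the log2 fold change was 0.81 (SE 0.26, edgeR adjusted p = 0.0251), or -0.099 with Sertoli cell markers level. Its counts were low, between 83 and 188 reads, and the call was lost without dsfb replicate 1 (edgeR adjusted p = 0.0947), dsfb replicate 3 (0.0526) or control replicate 2 (0.0839) and with no filter on low counts (0.057).

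C1qa, C1qb and C1qc encode the chains of C1q, the recognition molecule of the classical complement pathway, which binds antibody complexes and dying cells. They lie next to each other on the minus strand of chromosome 4, from 136880129 to 136898803, with 3617 bases between C1qb and C1qc and 2852 between C1qc and C1qa. C1qa was at 23.3, 20.6 and 30.6 CPM in dsfb, against 12.2, 8.42 and 13.6 CPM in control (log2 1.12, SE 0.23, edgeR adjusted p = 0.0036). C1qc was at 26.8, 19.97 and 29.8 CPM in dsfb, against 12.7, 8.18 and 14.5 CPM in control (log2 1.11, SE 0.25, edgeR adjusted p = 0.00546). For both genes the groups did not overlap, and the call held whichever library was left out. C1qb was at 23.3, 20.9 and 34.5 CPM in dsfb, against 18.7, 9.79 and 15.1 CPM in control. Here too all dsfb libraries were above the controls, and dsfb replicate 2 and control replicate 1 lay closest. The log2 fold change of C1qb was 0.86 (SE 0.28, edgeR adjusted p = 0.0279), a call lost without dsfb replicate 1 (edgeR adjusted p = 0.0503), dsfb replicate 3 (0.106) or control replicate 2 (0.072). With Sertoli cell markers level the values were 0.19 for C1qa, 0.18 for C1qc and -0.061 for C1qb, and none of these passed.

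Among the scavenger receptors, Mrc1, the mannose receptor (chromosome 2, 14229392 to 14332057), was the member with the smallest relative spread. It was at 92.4, 96.4 and 102.6 CPM in dsfb, against 67.4, 54.6 and 60.1 CPM in control. The groups were well separated (log2 0.68, SE 0.10, edgeR adjusted p = 0.000784), and the call held without any 1 library, while the value was -0.24 with Sertoli cell markers level (edgeR adjusted p = 0.0941). Cd163, which takes up complexes of haemoglobin and haptoglobin (chromosome 6, 124304656 to 124330527), was at 3.86, 3.90 and 6.59 CPM in dsfb and at 3.35, 2.85 and 2.04 CPM in control. Every dsfb library lay above every control library, but the counts were between 44 and 122 reads and the gene did not pass (log2 0.80, SE 0.31, edgeR adjusted p = 0.0514). It passed without control replicate 3 (edgeR adjusted p = 0.0496), with upper-quartile scaling (0.016) and with library size as the only scaling (0.0113).

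Lyz2 encodes lysozyme, a secreted enzyme that cleaves bacterial cell walls (chromosome 10, 117277331 to 117282321). It was at 35.96, 31.3 and 53.6 CPM in dsfb, against 36.7, 29.3 and 31.9 CPM in control. Only dsfb replicate 3 exceeded all control libraries. The log2 fold change was 0.30 (SE 0.21, edgeR adjusted p = 0.224), and 0.06 without dsfb replicate 3. The close copy Lyz1, between which and Lyz2 reads could be divided, held between 0 and 8 reads per library, and adding it left the Lyz2 value at 0.30. Lyz2 passed as higher with upper-quartile scaling (log2 0.58, edgeR adjusted p = 0.0348) and with library size only (0.70, edgeR adjusted p = 0.0187), and as lower with Sertoli cell markers level (-0.62, edgeR adjusted p = 0.0373).

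Fcgr3, a low-affinity receptor for the constant part of IgG that is also made by natural killer cells and granulocytes, was the member that fell (ENSMUSG00000059498, chromosome 1, 171051174 to 171064935, minus strand). It was at 6.04, 5.51 and 7.72 CPM in dsfb, against 31.8, 36.7 and 28.2 CPM in control. All dsfb libraries were below all control libraries, as was so for 38.5% of tested genes. The log2 fold change was -2.33 (SE 0.19, edgeR adjusted p = 3.1e-05), it lay between -2.46 and -2.22 when any 1 library was left out, and it was -1.93 with library size as the only scaling. In control replicate 2, where all of the other 9 genes but Cd163 were lowest in the group, Fcgr3 was highest.

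A related receptor and the partner chain of Fcgr3 were higher in dsfb on the TMM scaling. Fcgr2b, the inhibitory Fc receptor whose gene lies nearby (chromosome 1, 170958617 to 170976547), was at 7.82, 7.57 and 14.1 CPM in dsfb, against 5.58, 4.75 and 4.50 CPM in control, and rose (log2 0.99, SE 0.29, edgeR adjusted p = 0.0166). That call was lost without control replicate 2 (edgeR adjusted p = 0.052), and with Sertoli cell markers level the value was 0.08. Fcer1g, the signalling chain that FCGR3 needs at the cell surface, was at 10.5, 9.93 and 10.6 CPM in dsfb, against 7.21, 6.44 and 4.82 CPM in control. It rose on the TMM scaling (log2 0.75, SE 0.21, edgeR adjusted p = 0.0138) and stood at -0.16 with Sertoli cell markers level. Fcgr4, between the pair, had at most 9 reads in a library and was not tested. The extracellular parts of Fcgr2b and Fcgr3 are close in sequence, so reads could be divided between them. Fcgr2b and Fcer1g were picked for description after their values had been seen.

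GENCODE lists 4 transcript models of Fcgr3. Fcgr3-201 and Fcgr3-204 start at position 171059403, the first base after the promoter window shown above, and Fcgr3-202 starts 5532 bases further upstream, at 171064935. The counts cover the whole gene, so it was not tested which start the reads of either group came from. Germ cell markers were lower in dsfb along with Fcgr3. The pachytene sums are given above, and spermatid markers summed to 28.3 to 36.7 CPM in dsfb and 363 to 911 CPM in control. All 8 pachytene markers fell by edgeR, DESeq2 and limma-voom. The 8 spermatid markers tested all fell by edgeR, but 5 did by DESeq2 and 3 by limma-voom. Of all tested genes 36.2% fell by edgeR. The 12 granulocyte and mast cell markers summed to between 0.378 and 0.864 CPM in dsfb and between 1.63 and 3.89 CPM in control, with Ly6g and Fcer1a at 0 reads in every library. Mpo made up most of the control sums, and the other 11 summed to 0.86, 0.63 and 0.38 CPM in dsfb, against 0.19, 0.70 and 0.46 CPM in control, which overlapped. The 15 markers of T, B and natural killer cells summed to between 9.47 and 11.2 CPM in dsfb and between 10.1 and 11.4 CPM in control, which overlapped as well. The part of these cells in the result for Fcgr3 was not tested.

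**Figure D2:**
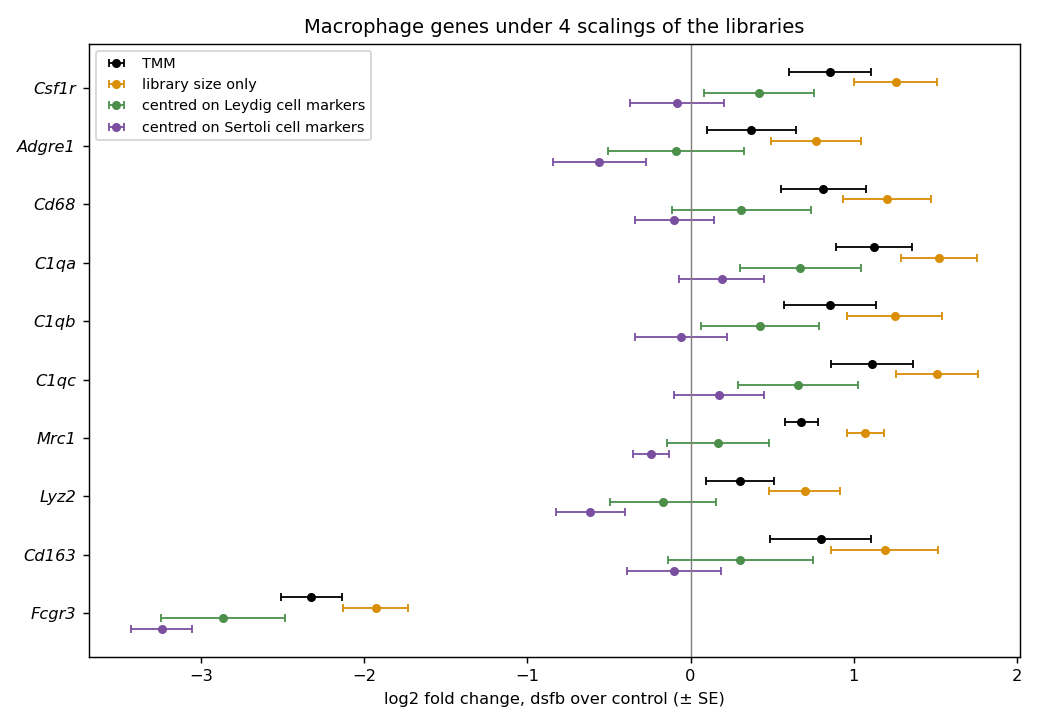
Log2 fold change of dsfb over control (± SE) for each macrophage gene with TMM, with library size as the only scaling, and with Leydig or Sertoli cell markers set level between groups. Fcgr3 lies between -3.24 and -1.93 under all 4, whereas 7 of the other genes lie above 0 with TMM and below 0 relative to Sertoli cell markers.

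A ratio of genes within a library does not depend on how libraries are scaled, and 9 such ratios, each of the other genes over Csf1r, were compared. Per 100 reads of Csf1r, C1qb had 67.3, 67.1 and 67.3 reads in dsfb, against 83.5, 62.9 and 56.2 in control, so the dsfb libraries were nearly alike and lay inside the control range. For Cd68 the mean was 21.3 ± 6.42 in dsfb and 21.4 ± 4.85 in control (SD, n = 3 each). Mrc1 stood at 259 ± 54.9 in dsfb and 292 ± 64.3 in control, and Cd163 at 12.2 ± 0.90 in dsfb and 13.6 ± 5.49 in control. These 4 ratios overlapped between the groups.

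The other 5 ratios did not overlap. The share of all genes whose ratio to Csf1r does not overlap was not computed. In CPM 36.2% of tested genes lay wholly above control and 38.5% wholly below. C1qa had 64.3 ± 4.07 reads per 100 Csf1r reads in dsfb and 53.1 ± 2.22 in control, and C1qc 66.4 ± 9.82 in dsfb and 54.5 ± 2.33 in control. Adgre1 was lower, at 22.4 ± 3.77 in dsfb and 31.7 ± 2.83 in control, as was Lyz2, at 103 ± 2.29 in dsfb and 157 ± 35.4 in control. Fcgr3 stood at 17.4, 17.6 and 15.1 in dsfb replicates 1, 2 and 3, against 142, 236 and 105 in control, a mean ratio 0.104 times that of control. Each of the 5 gave p = 0.1 in the exact two-sided permutation test, the smallest that 3 against 3 allows, and 0.18 after Benjamini-Hochberg adjustment over the 9 ratios, so these differences did not reach 0.05 in a design that could not. Part of the Csf1r reads may stem from the gene overlapping it, as given above.

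The 9 genes other than Fcgr3 varied together between libraries as well as between groups. In dsfb replicate 3 the level was the highest of its group for 9 of the 10 genes, all but Cd68, and in dsfb replicate 2 it was the lowest for 8. In control replicate 2 it was the lowest for 8. Over the 6 libraries Pearson's r between log2 CPM of any pair among the 9 genes without Fcgr3 was between 0.56 and 0.99, with a median of 0.84. The closest pair was C1qa and C1qc (r = 0.99), followed by Csf1r and C1qa (0.978), and C1qb had r of 0.948 with C1qa and 0.937 with C1qc. Fcgr3 had r between -0.95 (Mrc1) and -0.39 (Lyz2) with the others. These values include the difference between groups, which enters every profile, and are given as a description.

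The high macrophage level of dsfb replicate 3 came with low globin transcripts and a low summed level of Leydig cell markers. Summed over the 9 genes without Fcgr3, the level was 259, 237 and 327 CPM in dsfb replicates 1, 2 and 3, against 186, 137 and 176 CPM in control replicates 1, 2 and 3. The 10 Leydig cell markers summed to 872, 789 and 565 CPM in dsfb, against 557, 382 and 604 CPM in control, and the globins were lowest in the replicates numbered 3. The Leydig markers did not move alike. Cyp17a1 was at 206.5, 178.9 and 40.3 CPM in dsfb replicates 1, 2 and 3, and Star and Cyp11a1 were also lowest in replicate 3. Insl3, Lhcgr and Hsd3b6 were highest there. Cyp17a1, Cyp11a1 and Hsd3b6 were named after their values were seen. Without the replicates numbered 3, 6 of the 10 genes rose and 1 fell, while 33.2% of all genes rose. The log2 fold changes were then -2.57 for Fcgr3, 0.63 for Mrc1, 1.09 for C1qa and 0.03 for Lyz2. This choice of libraries was made after seeing the data. The part of blood in the results was not tested beyond that.

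**Figure D3:**
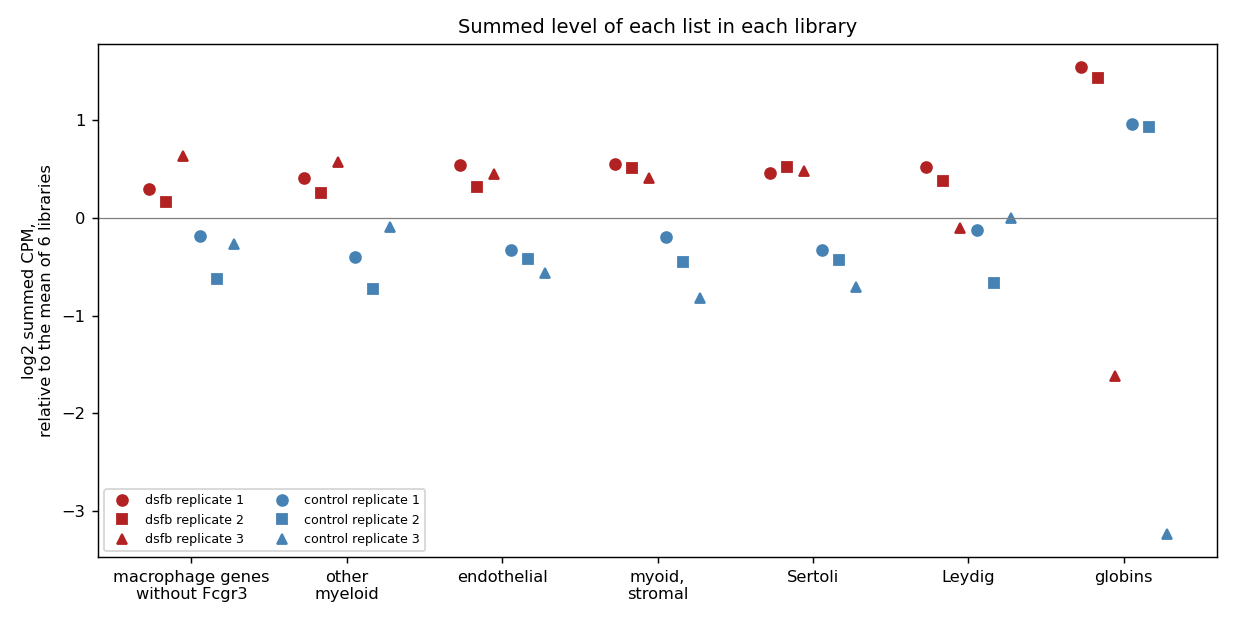
Summed CPM of each marker list in each library, on a log2 scale relative to the geometric mean of the 6 libraries (red, dsfb; blue, control; circle, square and triangle, replicates 1, 2 and 3). The macrophage genes without Fcgr3 are highest in dsfb replicate 3, in which the summed Leydig and globin levels are the lowest of the dsfb group.

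Genes whose profile over the 6 libraries was most like the mean standardised profile of the 10 were not in the lists of macrophage and myeloid markers. The 10 closest of 17283 genes compared were Etv5, Lbhd1, Tob2, Frmd7, Sde2, Slc9a2, Rere, AC154652.2, Olfr32 and Efr3b, with r between 0.987 and 0.997. Laptm5, a lysosomal membrane protein of leukocytes that was picked after its value was seen, came next (r = 0.987, rank 11). With 6 libraries 102 genes had r over 0.95. Of 35 other macrophage and myeloid markers that could be compared 18 had r over 0.8, as had 14.7% of all genes.

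Other macrophage and myeloid markers moved less uniformly. Of 38 tested, 12 rose, 2 fell and 24 did not pass, with a median log2 fold change of 0.66. With 31.6% of the list higher, against 30.7% of all tested genes, the share of rises was close to the background, while 5.26% fell, against 36.2% of all genes. Mpeg1, a pore-forming protein of phagocytes, was at 107, 112 and 120 CPM in dsfb, against 51.8, 45.0 and 45.4 CPM in control. The groups lay far apart (log2 1.25, SE 0.09, edgeR adjusted p = 2.24e-05), and Mpeg1 still rose with Sertoli cell markers level (0.34, edgeR adjusted p = 0.0181). Maf, a transcription factor that is also used by other cells, rose with a log2 fold change of 1.31 (SE 0.17), as did Coro1a, which binds actin in leukocytes (1.32, SE 0.24). The count of rises was 21 with upper-quartile scaling and 25 with library size only, where 41.3% and 45.1% of all genes rose, and 2 with Sertoli cell markers level.

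The markers that fell, named after their values were seen, were Marco and Aif1. Marco, a scavenger receptor, was at 0.66, 0.11 and 0.11 CPM in dsfb, against 1.26, 1.16 and 2.23 CPM in control (log2 -2.34, SE 0.66, edgeR adjusted p = 0.0149), a call lost without dsfb replicate 2 (0.0573) or 3 (0.0564). Without dsfb replicate 1 its value was -3.71. Aif1, an actin-binding protein used to stain macrophages, was at 3.05, 2.98 and 2.92 CPM in dsfb, against 4.24, 4.21 and 56.0 CPM in control. Its level in control thus rested on replicate 3, the library with the most spermatid transcripts. The log2 fold change was -2.85 (SE 1.01, edgeR adjusted p = 0.0378) with all libraries and -0.53 (edgeR adjusted p = 0.0521) without that one, and the call was also lost without any 1 of the dsfb libraries. The general leukocyte marker Ptprc was at 1.88, 2.24 and 2.70 CPM in dsfb, against 1.72, 2.35 and 2.32 CPM in control, and did not pass (log2 0.09, SE 0.26, edgeR adjusted p = 0.775). It was picked after its values were seen.

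**Figure D4:**
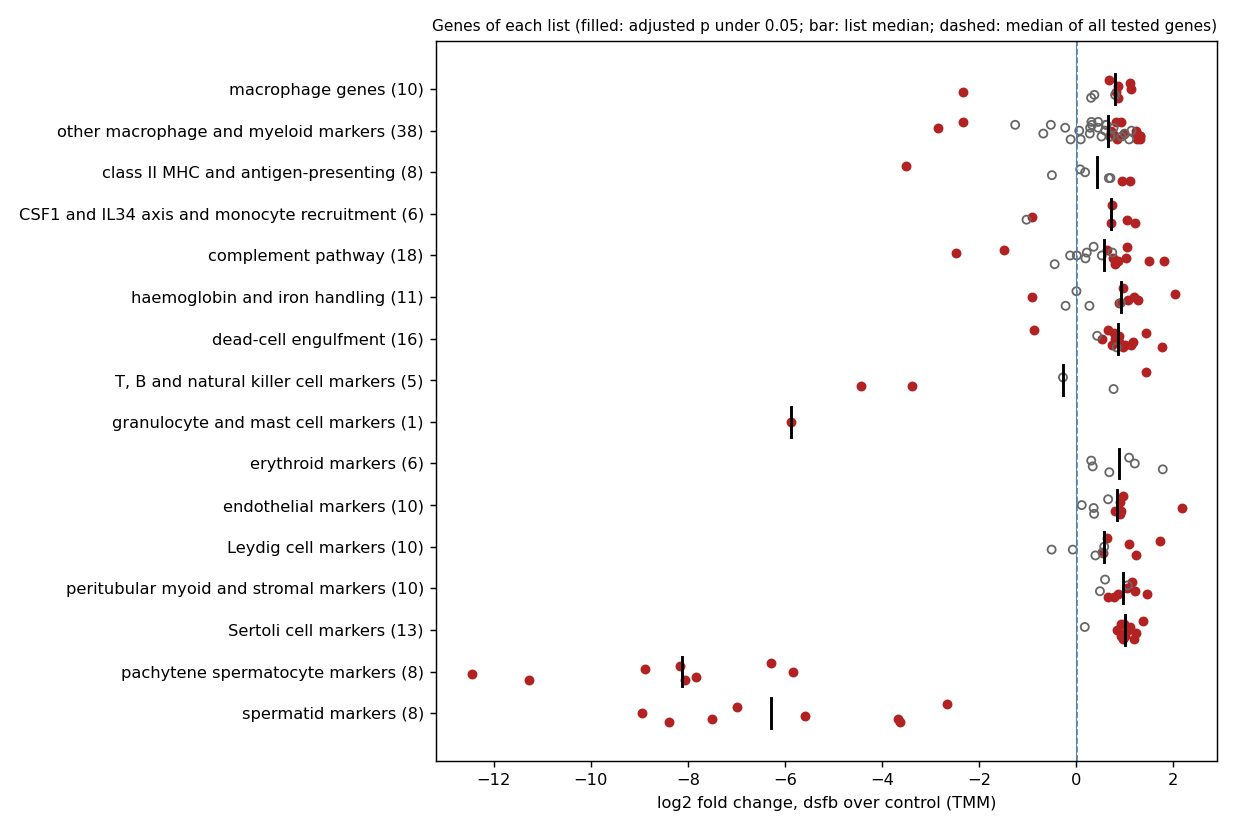
Log2 fold change of dsfb over control for each tested gene of 16 lists, with the number tested in brackets, on the TMM scaling. Filled points passed the test, bars are list medians and the dashed line is the median of all tested genes (0.02). The macrophage genes (median 0.81) lie close to the endothelial (0.84), stromal (0.96) and Sertoli cell (1.0) markers, and all 3 of these medians fall to between -0.07 and 0.08 with Sertoli cell markers level.

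The list for the CSF1 and IL34 axis and monocyte recruitment holds ligands, chemokines and receptors. Of its 10 genes 6 could be tested, of which 4 rose and 1 fell. In shares, 66.7% rose and 16.7% fell, against 30.7% and 36.2% of all tested genes. Csf1, the main ligand of CSF1R, was at 29.7, 26.4 and 34.1 CPM in dsfb, against 14.4, 11.03 and 13.7 CPM in control. The groups were well apart (log2 1.20, SE 0.17, edgeR adjusted p = 0.000483), and the value was 0.28 with Sertoli cell markers level (edgeR adjusted p = 0.212). Il34, the other ligand, was at 0.56, 0.75 and 0.65 CPM in dsfb, against 0.79, 1.16 and 2.04 CPM in control, and did not pass (log2 -1.03, SE 0.42, edgeR adjusted p = 0.0618). Cxcl12 (log2 1.05, SE 0.15), a chemokine of stromal cells, and Csf2ra (0.71, SE 0.11), a receptor subunit for the growth factor CSF2, rose, Csf2ra with -0.21 relative to Sertoli cell markers. Cx3cl1, a chemokine, was the fourth that rose (0.73), and it and Il34 were named after their values were seen. Flt3, a receptor of dendritic and progenitor cells, fell (-0.91, SE 0.19). The chemokine genes Ccl2, Ccl7 and Ccl12 and the growth factor gene Csf2 had at most 8 reads in a library and were not tested.

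In the complement pathway beyond C1q, 8 of 18 tested genes rose and 2 fell (median log2 fold change 0.58). That is 44.4% higher and 11.1% lower, against 30.7% and 36.2% of all tested genes. C1ra, a protease bound to C1q, rose by 0.79 (SE 0.14, edgeR adjusted p = 0.00159) on the TMM scaling and had -0.12 relative to Sertoli cell markers. Masp1, a protease of the lectin pathway, rose by 1.82 (SE 0.21) and Cfp, which encodes properdin and is X-linked, by 1.49 (SE 0.22). The genes that fell were C4b and Cd55, of which Cd55 was named after its values were seen. C4b, a component that C1 cleaves, was at 3.66, 3.61 and 3.996 CPM in dsfb, against 15.0, 15.6 and 32.1 CPM in control (log2 -2.47, SE 0.33, edgeR adjusted p = 0.000413). Its close copy C4a could take or give part of these reads. Cd55, which shields cells from complement, had a log2 fold change of -1.48 (SE 0.27, edgeR adjusted p = 0.00184).

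Genes for class II antigen presentation, which mark the peritubular macrophages of the mouse testis, gave 2 rises and 1 fall among 8 tested (median 0.43). The share of rises, 25.0%, was below the 30.7% of all tested genes, and 12.5% fell, against 36.2%. Cd74, the invariant chain, was at 6.20, 6.94 and 7.67 CPM in dsfb, against 3.21, 3.88 and 3.66 CPM in control (log2 0.95, SE 0.20, edgeR adjusted p = 0.00423). Itgax, an integrin of dendritic cells and some macrophages, rose with 1.11 (SE 0.37, edgeR adjusted p = 0.0284), a call lost without dsfb replicate 1 (0.0917) or 2 (0.0778) or control replicate 1 (0.094). H2-DMb1, a subunit of the chaperone that loads class II molecules with peptide, was at 0.81, 0.23 and 0.65 CPM in dsfb, against 6.38, 6.36 and 6.72 CPM in control (log2 -3.50, SE 0.39, edgeR adjusted p = 0.000176). It lay below the controls in every dsfb library, and reads could be divided with its close copy H2-DMb2. The count of rises was 4 without control replicate 3 and 1 without dsfb replicate 1 or 2 or control replicate 1.

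Engulfment and iron handling are tasks that macrophages share with Sertoli and other cells. Of 16 engulfment genes 13 rose (81.2%, against 30.7% of all tested genes) and 1 fell (6.25%, against 36.2%), with a median of 0.85. Mfge8, which bridges dying cells to phagocytes, was at 176 ± 16.6 CPM in dsfb and 64.6 ± 3.24 CPM in control (SD, n = 3 each; log2 1.44). The receptors Tyro3 and Axl rose with 1.18 (SE 0.09) and 1.13 (SE 0.12), and Scarb1, a lipid and dead-cell receptor, with 0.73 (SE 0.08), or -0.19 relative to Sertoli cell markers. Stab2, the member that fell, had -0.87 (SE 0.23, edgeR adjusted p = 0.012), and -0.46 with library size only, where it did not pass (edgeR adjusted p = 0.0893). Of 11 genes of haemoglobin and iron handling 6 rose (54.5%) and 1 fell (9.09%), with a median of 0.92. Hmox1, which breaks down haem, was at 34.3 ± 1.44 CPM in dsfb and 14.3 ± 2.42 CPM in control (log2 1.27, SE 0.15, edgeR adjusted p = 0.000246). Ftl1, the light chain of ferritin, rose with 2.04 (SE 0.14), though its exons overlap another gene and the genome holds further copies. The iron transporter gene Slc11a2 and the scavenger receptor gene Lrp1 rose with 0.95 and 1.06. Hmox2, which encodes a constitutive haem oxygenase, fell (-0.92, edgeR adjusted p = 0.0088), and it did not pass with library size only (-0.51, edgeR adjusted p = 0.0562). Stab2 and Hmox2 were named after their values were seen.

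Markers of other somatic cells also rose on the TMM scaling. The share that rose was 60.0% for endothelial, 70.0% for myoid and stromal, 92.3% for Sertoli and 50.0% for Leydig cell markers. Of all tested genes 30.7% rose. Of 10 endothelial markers 6 rose (median log2 fold change 0.84), among them Robo4 (2.18), Eng (0.96), Cdh5 (0.80) and Esam (0.90). Of 10 myoid and stromal markers 7 rose (median 0.96), among them Col1a1 (1.46), Tcf21 (1.20), Pdgfra (1.15) and Myh11 (0.86). Of 13 Sertoli cell markers 12 rose (median 1.0), among them Cldn11 (1.20), Gata4 (1.06), Amhr2 (0.92) and Dhh (1.0). Of 10 Leydig cell markers 5 rose (median 0.56), among them Nr5a1 (1.22), Insl3 (1.73), Lhcgr (0.63) and Star (1.09), a count that was 2 without dsfb replicate 1 or 3 and 8 without control replicate 3. With Sertoli cell markers level the list medians were -0.07 (endothelial), 0.03 (stromal), 0.08 (Sertoli) and -0.36 (Leydig). Exons of Eng, Pdgfra, Insl3 and Dhh, and those of Coro1a, Maf, Cd55, Slc11a2, Stab2 and Hmox2 above, overlap other genes, so their reads may be shared. The gene overlapping Maf held 0 reads in every library. In these 4 lists 0 genes fell by edgeR, with 1 Leydig gene lower at an unadjusted p under 0.05 and 1 called by DESeq2 and by limma-voom. Per 1000 reads of autosomal Sertoli cell markers the 9 macrophage genes without Fcgr3 held 49.3 ± 8.65 reads in dsfb and 58.9 ± 12.7 reads in control (SD, n = 3 each). Per 1000 reads of Leydig cell markers they held 297, 300 and 579 reads in dsfb, against 335, 360 and 292 reads in control. The groups overlapped in both ratios. Fcgr3 held 1.15 ± 0.21 reads per 1000 Sertoli marker reads in dsfb and 11.3 ± 1.21 reads in control, and these groups did not overlap.

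Markers of other blood cells were scarce. Of 15 markers of T, B and natural killer cells 5 could be tested, of which Trac, a T cell receptor gene, rose (log2 1.44) and Cd3d, of the T cell receptor complex, fell (-3.37). Cd3d was at 0.15, 0.06 and 0.22 CPM in dsfb, against 1.82, 1.20 and 1.62 CPM in control, and all dsfb libraries lay below the controls. Of the 12 granulocyte and mast cell markers 1, Mpo, could be tested, with 0, 2 and 0 reads in dsfb, against 31, 62 and 74 reads in control. It fell (edgeR adjusted p = 0.000466). Its exons overlap a gene on the opposite strand that held 0 reads in every library. None of the 6 erythroid markers passed in either direction by edgeR, limma-voom or DESeq2, while 66.9% of all tested genes passed by edgeR. By edgeR 1 erythroid marker was higher at an unadjusted p under 0.05. Without the replicates numbered 3, left out after seeing the data, 5 erythroid markers rose, as did 33.2% of all genes.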

How the data were processed

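Per the labels' protocols, TRIzol was used to extract testis RNA and a NEBNext Ultra kit to build polyA libraries. The deposited table gives raw read counts per gene, 1 column per library, and all 6 columns were used. The submitters' processing notes name STAR 2.6.0 and mm10. Counting tool, annotation and use of strand: not given in the sources used here. Symbols, positions and exon lengths came from GENCODE M21, in which 55227 of 55487 identifiers were found; the other 260 held 0.0238% of counts and stayed in the tests. Promoter windows came from RefSeq (GRCm38.p6).

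The comparison was fitted on all genes with edgeR 4.0.16 in R 4.3.3 (filterByExpr by group, TMM, quasi-likelihood test, prior count 0.125), with Benjamini-Hochberg adjustment over all 19826 tested genes and a threshold of 0.05. Standard errors divide the size of the log2 fold change by the root of F. CPM use library sizes times the TMM factor ( 1.14, 1.139 and 1.163 for dsfb and 0.8975, 0.8755 and 0.8436 for control), and profiles used log2 of CPM plus 0.5. Each library comes from a separate mouse, so n = 3 per group counts animals. Counts differed between every pair of libraries of a group by more than sampling noise (chi-square per degree of freedom 3.82 to 65).

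The genes and the 15 other lists (197 genes) were chosen with earlier results of these data known. Up to 4 genes per list with the smallest p among those that passed were named, and others are marked as named after their values were seen. Some genes that meet this rule are not reported here. Lists are described by counts and medians, without a set test. Alternatives were RLE, upper-quartile and library-size scaling, centring on autosomal Sertoli or on Leydig cell markers, other filters, DESeq2 1.42.0, limma-voom (limma 3.58.1), leaving out each library, a replicate block, Lyz1 and Lyz2 summed and the libraries numbered 1 and 2 only, chosen after seeing the data.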

Additional observations from a re-analysis of the deposited data

How the results depend on the processing

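Of the macrophage genes 6 rose and 1 fell with RLE scaling, a mean of at least 1 CPM, DESeq2 and limma-voom, as in the fit reported. The count of rises was 5 with no filter, 8 with upper-quartile scaling and 9 with library size only, and between 3 and 7 when 1 library was left out, with 3 without dsfb replicate 3 or control replicate 2. The fall of Fcgr3 passed in every alternative run. Centring on Sertoli cell markers gave 513 rises and 11823 falls over all genes, and 0 rises and 2 falls among the macrophage genes. Centring on Leydig cell markers gave 504 rises over all genes and 0 among the macrophage genes. These centrings set the chosen markers level by construction.

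With Sertoli centring the log2 fold change turned below 0 for Csf1r (-0.083), Adgre1 (-0.56), Cd68 (-0.099), C1qb (-0.061), Mrc1 (-0.24), Lyz2 (-0.62), Cd163 (-0.10), Csf2ra (-0.21), C1ra (-0.12), Scarb1 (-0.19), Cdh5 (-0.11), Esam (-0.04), Lhcgr (-0.29), Myh11 (-0.041), Amhr2 (-0.008) and Fcer1g (-0.16). With Leydig centring it turned for Adgre1 (-0.091) and Lyz2 (-0.17). Upper-quartile and library-size scaling moved the median of all genes by 0.28 and 0.40, and raised the share of calls that are higher to 57.2% and 60.9%, against 45.9% with TMM.

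Same-numbered libraries deviated together only weakly (r = 0.08, 0.08 and 0.13 for numbers 1, 2 and 3), each correlating best with its own number, and both libraries numbered 3 were low in globins. The labels do not say that the numbers pair the mice. With a replicate block 6 macrophage genes rose and 1 fell, and over all genes 6228 rose and 7203 fell. Of the other named genes Aif1 lost its call (edgeR adjusted p = 0.0685). At 44 to 188 reads, counting error limits Cd163 and Cd68 most.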
